A study of Pistia stratiotes with 8 samples.

Results

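In the leaf and root transcriptome of Pistia stratiotes (water lettuce, a floating freshwater plant of the arum family), 564 of 16504 rows carry a transcript suffix of t3 or higher. A row id consists of a gene number and, after a dot, the number of a transcript (t1, t2, t3 and so on). All rows with suffix t3 or a higher number were taken, whatever their values, and make up 3.42% of the table. They are called late-suffix models below and are set beside the 14805 rows with suffix t1 and the 1135 rows with suffix t2.

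Both organs came from the same culture, with no treatment and no genotype given in the labels. Per the labels' protocols, each 500 ml flask held 200 ml of SH medium, was started from 1 mature plant and was kept for 10 days. The leaf group holds 4 libraries of the largest emerged leaf of young plants, and the root group holds 4 libraries of roots freed of apex and laterals. Each library is the pooled tissue of all young plants in a flask, so a sample averages several plants, and the root samples describe the mature root axis only. Leaf columns are numbered 1 to 4 in the table but 1, 3, 4 and 5 in the labels, and libraries are numbered here as in the table.

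Plant genes often give rise to several transcripts, through alternative splicing, alternative starts or alternative ends, and retention of an intron is a common form in plants. An annotation lists such transcripts as separate models under a shared gene number. The number of models depends on the structure of the gene and on the transcript evidence available to the annotation. A suffix is a label of the annotation and measures neither how many transcripts the plant makes nor which of them it uses.

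Every gene number occurs in 1 row, and 0 rows share a number with another, so each gene is represented by a single model. The gene numbers run from 1 to 20355, and 3851 of them have no row. For a late-suffix model the earlier-numbered transcripts of its gene were thus not analysed here. Whether a value counts the reads of that transcript alone or of the whole gene is not given in the sources used here. The ids are paired with no gene names, so no function is given for any of them, and neither leaf nor root markers could be looked up to check the tissues. No sequence of a model was used here. Values are normalized counts, that is read counts scaled between libraries by the authors, and are not divided by transcript length. Differences in level between models therefore mix abundance with length. At a matched level, models share a similar counting precision, not necessarily a similar abundance.

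The suffix numbers fell off steeply. There were 319 models with t3, 117 with t4, 64 with t5 and 64 with t6 or later, up to t16. Late-suffix models were spread through the gene numbering. In 20 blocks of 1000 consecutive numbers they made up 2.16% to 4.97% of the rows, with a median of 3.46%. Among 482 late-suffix models whose next gene number is in the table, the next row was a late-suffix model in 21 cases (4.36%), against 3.47% over all rows. Both models were called different between the organs in 3 of these 21 neighbouring pairs, and in 0 of them in the same direction. These counts were not taken over all neighbouring rows, so they have no background share and describe the pairs only. Whether neighbouring numbers are neighbouring genes was not given in the sources used here.

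The libraries were of similar depth. In normalized counts, the column totals ranged from 7299221 to 8749656 for leaf and from 5458151 to 5809933 for root, and division by the worth of a single read gave an estimated 5814220 to 6209344 reads per library. The worth of a read, taken as the median of the lowest band of values above 0, ranged from 1.19 to 1.45 normalized counts for leaf and from 0.928 to 0.976 for root. Its band was widest in root library 1, at 25.5% of the median. Counts of reads cannot be had from scaled values, so low values have a counting error of unknown size and are given without an interval.

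Late-suffix models held the middle of the range of levels. Their mean normalized count over the 8 libraries had a median of 121.5 and quartiles of 52.2 and 293.7, a 5.62-fold span. The t1 models had a median of 103.2 with quartiles of 19.5 and 332 (17.1-fold), and the t2 models had a median of 149.7 with quartiles of 51.4 and 353.9 (6.88-fold). All rows with a value above 0 were then divided into deciles of mean level. The 2 lowest deciles held 36 late-suffix models (6.38%), against 21.2% of the t1 and 9.16% of the t2 models. The highest decile held 36 late-suffix models (6.38%), against 10.2% of t1 and 8.28% of t2 models. Deciles 4 to 7, with means of 33.8 to 268.2 normalized counts, held 318 late-suffix models (56.4%) and 38.5% of the t1 models. At the boundary of the definition, the t2 models had 48.6% of their number in these deciles. These are counts over models and were given no test.

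**Figure D1:**
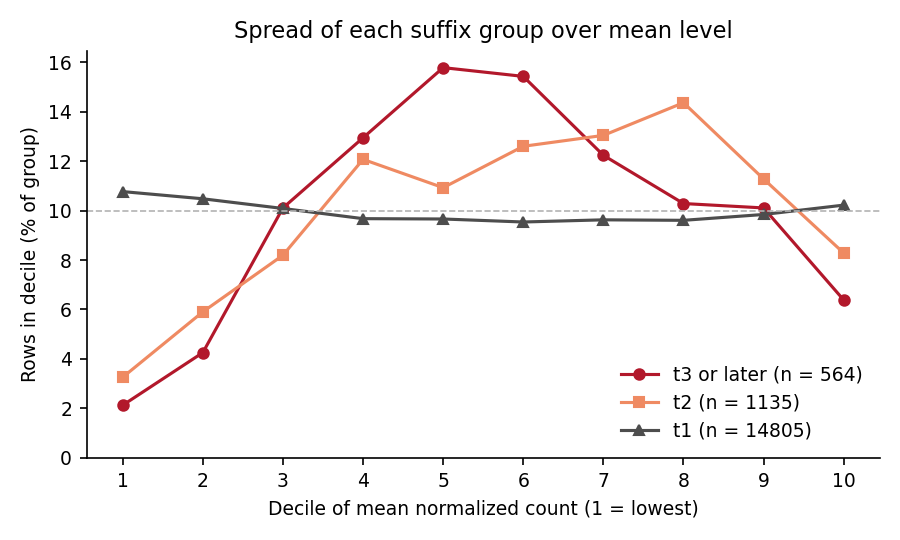
Share of each suffix group (vertical axis, % of its rows) in the deciles of mean normalized count over all 8 libraries (horizontal axis, 1 is the lowest). The dashed line marks 10%, the share of an even spread. Late-suffix models (circles) are few in deciles 1 and 2 and in decile 10 and peak in deciles 5 and 6, with 89 and 87 models, while t1 models (triangles) stay near 10% throughout.

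On the authors' scale the typical level was similar in the organs. The median over the late-suffix models was 122.1, 119.7, 112.6 and 108.2 normalized counts in leaf libraries 1 to 4 and 124.3, 120, 120.4 and 118 in root libraries 1 to 4. The ranges of the organs overlapped. Scaling between libraries can itself bring such medians together. On column totals the median log2 difference, leaf minus root, was -0.54 for the late-suffix models and -0.53 for all tested models. The t1 models had lower medians in every library, 86.6 to 90.7 in leaf and 92.2 to 100.5 in root, and the t2 models higher ones, 134.8 to 140.7 and 144.6 to 157.4.

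Added up, late-suffix models took 3.73%, 3.52%, 3.25% and 3.43% of leaf libraries 1 to 4 and 3.42%, 3.46%, 3.47% and 3.52% of root libraries 1 to 4. The leaf mean was 3.48% ± 0.20 and the root mean 3.47% ± 0.04 (SD, 4 libraries each), and the leaf range enclosed the root range. A single model, Pis14036.t3, made up 35.4% of the summed mean level of the late-suffix models and ranked 3 among all rows of the table. Without this model, picked after its values were seen, the share was 1.70% to 2.25% in leaf and 2.52% to 2.72% in root, so the organs no longer overlapped. Without the 10 most abundant late-suffix models it was 1.64% in leaf and 2.13% in root. A lower share in leaf was not particular to them. The t2 models took 4.12% to 4.83% in leaf and 6.25% to 6.98% in root, and the t1 models 91.7% to 92.1% and 89.6% to 90.2%. These are shares of a library's total, which a few abundant models can lower for all others.

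Pis14036.t3, named after its values were seen, had 177578.8, 108262.6, 98640.9 and 86171.2 normalized counts in leaf libraries 1 to 4. In root libraries 1 to 4 it had 38264.8, 44089.1, 53297.6 and 58104.2. Every leaf library exceeded every root library, and leaf library 1 was the highest of all. The log2 difference was 1.24 with a standard error of 0.44 (limma adjusted p = 0.0356). That call depended on the processing. The adjusted p was 0.0985 with the column number as a block, 0.0667 without the filter on low values, and 0.0784 on column totals. It was 0.0544 to 0.124 when leaf library 1, leaf library 2 or any of the root libraries was left out. Quantile normalization turned the difference to -0.34. Of the 10 most abundant late-suffix models, 4 were called in favour of leaf, 3 in favour of root and 3 were not called.

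Detection was broad. A model was counted as detected in a library at 10 times the worth of a read or more. Late-suffix models were detected in all 8 libraries in 471 cases (83.5%) and in none in 15 (2.66%). For t1 models these shares were 65.2% and 11.6%, and for t2 models 79.4% and 3.52%. The remaining 78 late-suffix models (13.8%) were detected in 1 to 7 libraries, most often in 7 (27 models) or 4 (24 models).

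Root libraries held more of them than leaf libraries. In leaf libraries 1 to 4, 509, 510, 505 and 501 of the 564 were detected, and in root libraries 1 to 4, 535, 536, 535 and 532. The organs did not overlap, the leaf mean being 89.8% ± 0.73 and the root mean 94.8% ± 0.31 (SD, 4 libraries each). The same order was present in the t1 models, at 73.1% ± 0.79 and 80.9% ± 0.78, and in the t2 models, at 84.6% ± 0.78 and 92.7% ± 0.50. A read was worth more normalized counts in leaf than in root, so that a model at an equal normalized level falls below the limit more easily in leaf. With 1 common limit at 10 times the highest worth of a read, 80.7% of the late-suffix models were detected in all 8 libraries. Fewer cells of a type and less RNA per cell cannot be told apart in such tissue samples.

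**Figure D2:**
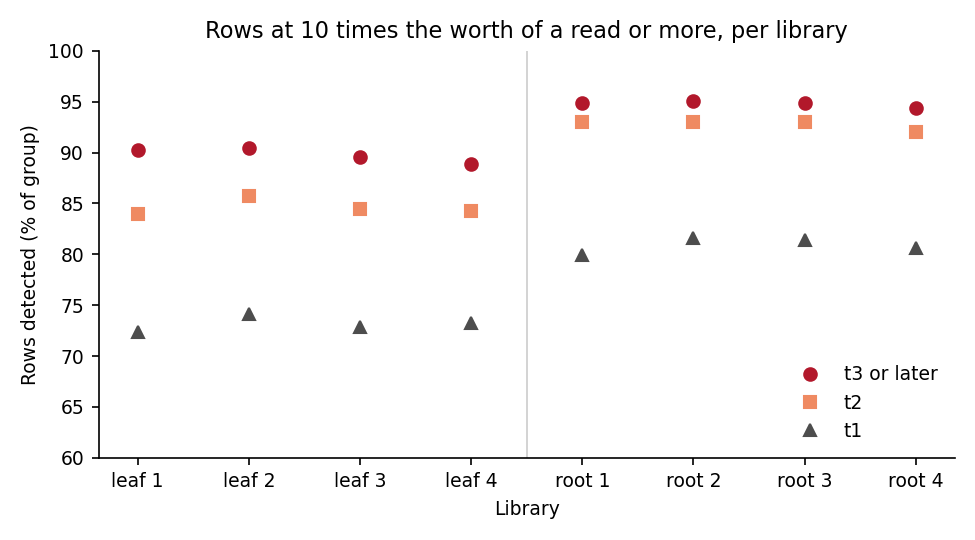
Share of models detected (vertical axis, % of each suffix group, axis starting at 60%) in each of the 4 leaf and 4 root libraries (horizontal axis). In every library the late-suffix models (circles) lie above the t2 models (squares) and the t1 models (triangles), and each group is higher in root than in leaf.

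Breadth of detection goes with level, and few late-suffix models were at low levels. When the t1 models were weighted to the same spread over the deciles of mean level, 78.2% of them were detected in all 8 libraries, and with the same weighting 80.0% of the t2 models were. The late-suffix models with any value above 0 stood at 83.8%, that is 5.60 percentage points above t1 and 3.76 above t2. In the deciles where the groups could differ, the late-suffix share exceeded the t1 share in 8 of 8. In decile 3 (means of 14.1 to 33.8) it was 42.1% against 25.2%, and in decile 4 it was 83.6% against 71.5%. Against t2 the late-suffix share was the higher one in 5 deciles and the lower one in 2. The excess over t1 was 4.54 to 6.81 points under every alternative run, and that over t2 was 2.19 to 5.07. No test was made of these differences between groups of models.

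Absence from an organ was rare. A late-suffix model was listed at 0 in 10 to 20 cases per leaf library and 4 to 6 cases per root library. Only 2 were at 0 in all 8 libraries. None of the 564 (0) was at 0 throughout root while present in leaf, against 212 of all 16504 rows (1.28%) and 0.589% of the t1 models weighted to the same levels. In the other direction, 4 (0.709%) were at 0 throughout leaf while present in root, against 565 of all rows (3.42%) and 1.62% of the level-weighted t1 models. The t2 models weighted to the same levels had 0.680% at 0 throughout root only and 0.948% throughout leaf only. The 4 late-suffix models were near the limit in root too, with values of at most 10.2 normalized counts. A count of 0 of 564 allows a share of up to 0.532% if the models are treated as independent. They share the same 8 libraries, so this limit cannot decide the contrast with the level-weighted t1 models, of which no test was made.

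By detection rather than by zeros, 3 late-suffix models were detected in all leaf and no root libraries, and 20 in all root and no leaf libraries. These are 0.532% and 3.55% of the late-suffix models, against 1.40% and 5.79% of the level-weighted t1 models. For level-weighted t2 models the shares were 0.923% and 6.23%. The 20 models had root means of 13 to 380.8 normalized counts, with a median of 27.4, and leaf means of 0.637 to 8.40. The 3 models had leaf means of 50.6 to 53.8 and root means of 0.708 to 4.30.

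The design poses 1 comparison, leaf against root. It was tested by limma on log2(normalized count + 1) over the 13688 models of the table that reached 10 normalized counts in 4 or more libraries, and p-values were adjusted over all of them by the Benjamini-Hochberg method. Of the 564 late-suffix models, 538 entered the test. The other 26 had means of at most 10.5 normalized counts, and 2 of them were the models at 0. Through the values of 1 organ alone 21 entered (3.72% of the 564), against 1026 of all rows (6.22%) and 6.47% of the level-weighted t1 models. A model that enters in this way had to differ, since the filter itself keeps its organs from overlapping. Such models stay in the counts of calls and of no overlap below, which were not repeated without them.

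Late-suffix models were called higher in either organ, with a balance that depended on the scale. Of the 538, 244 (45.4%) were called different at an adjusted p under 0.05, where 51.6% of all tested models were called. In leaf, 111 (20.6%) were higher, against 24.4% of all tested models, and in root 133 (24.7%) were higher, against 27.2%. Of the t2 models 19.6% were called higher in leaf and 30.8% in root, and at matched level 18.3% and 31.8%. A lower share called in leaf was thus not particular to late-suffix models. The values of leaf and root libraries did not overlap for 228 late-suffix models (42.4%), against 48.6% of all tested models. The median log2 difference, leaf minus root, was -0.06 for the late-suffix models and -0.05 for all tested models. The balance of directions moved with the scale. Scaling to column totals shifted the median of all tested models to -0.53. On that scale 49 late-suffix models (9.07%) were called higher in leaf and 268 (49.6%) in root. Of all tested models 13.3% and 48.7% were called so. Relative to that shift the late-suffix median, -0.54, was nearly unmoved. Quantile normalization, with a median of 0.05 over all tested models, gave 133 in favour of leaf and 114 in favour of root, which turned the order. The order turned over all tested models too, with 3884 against 3521.

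A difference above 2-fold was shown by the second limma test (treat) for 67 late-suffix models (12.5%), against 17.9% of all tested models. In leaf 22 (4.09%) were higher, against 6.6%, and in root 45 (8.36%), against 11.3%. Of the t2 models 4.55% were higher in leaf and 11.1% in root, and at matched level 4.28% and 12.1%. The 22 had a median leaf level of 501.6 normalized counts and a median root level of 74, and the 45 had a median of 126.8 in root and 18.5 in leaf. Above 4-fold the same test left 18 models (3.35%), 9 in each direction. Of all tested models it left 8.54%, 322 higher in leaf and 847 in root. Root kept the larger number above 2-fold on column totals (61 against 13) and after quantile normalization (33 against 25). The same held over all tested models, with 2168 against 562 and 1308 against 988. For all 67 late-suffix models above 2-fold the values of the organs did not overlap, an outcome that selection by this test favours. The share without overlap was not taken over all models past the test.

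**Figure D3:**
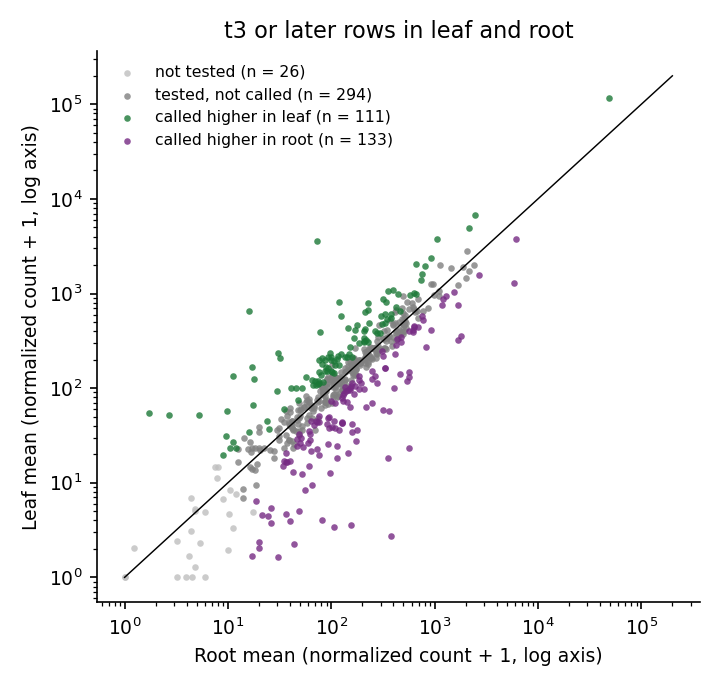
Mean normalized count + 1 of each late-suffix model in root (horizontal log axis) and leaf (vertical log axis), each a mean of 4 libraries, coloured by the limma call. The diagonal marks equal means. Most of the 294 uncalled models (dark grey) lie along it between 10 and 1000, the 111 models called higher in leaf lie above it, and the 133 called higher in root lie below it, while a single point, Pis14036.t3, stands apart at the top right.

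Differences between the organs were small for most late-suffix models. The median size of the log2 difference, without regard to sign, was 0.49 over the 538, against 0.60 for all tested models, 0.62 for t1 and 0.53 for t2. Within 0.5 on the log2 scale lay 273 (50.7%), against 43.4% of all tested models, and 54 (10.0%) had an estimate beyond 4-fold, against 16.2%. At matched level the median size was 0.60 for t1 and 0.54 for t2 models. The percentage beyond 4-fold at matched level was 16.4% for t1 and 14.9% for t2. Since the filter itself admits models through a high organ, the values were also taken over all rows above 0. There the median size was 0.51 for 562 late-suffix models, 0.61 for level-weighted t1 and 0.57 for level-weighted t2 models.

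By decile, the median size was below that of t1 models in 7 of 9 deciles and below that of t2 models in 6. It was 0.28 against 0.51 in decile 7 and 0.52 against 0.78 in decile 4, where 69 and 73 late-suffix models were tested. In decile 2 it was larger, 2.15 against 1.25, over only 12 tested models, and in decile 9 it was 0.49 against 0.47. The share called was below that of t1 in 8 of 9 deciles, from 34.8% in decile 7 to 61.1% in decile 10, and above it in decile 2. The median size minus that of level-weighted t1 models was -0.12 as analysed and lay between -0.15 and -0.06 under every alternative, smallest on column totals. Minus level-weighted t2 models it was -0.06 and lay between -0.10 and -0.05. The median size of the late-suffix models alone, taken library by library, had an SD of 0.03 between libraries. This is not the spread of the contrasts with t1 and t2, and no test was made across models.

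**Figure D4:**
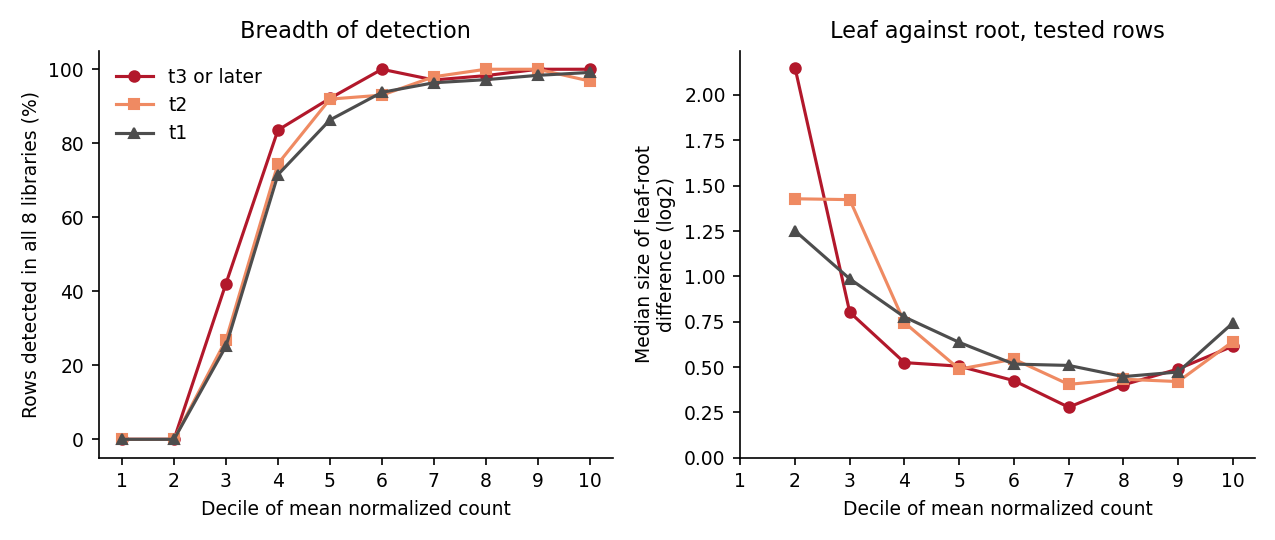
Left, share of models detected in all 8 libraries (%), and right, median size of the leaf to root difference among tested models (log2), both by decile of mean normalized count (horizontal axes), for late-suffix (circles), t2 (squares) and t1 models (triangles). Late-suffix models lie above t1 in detection in deciles 3 to 10 and below t1 in the size of the difference in deciles 3 to 8 and 10. The high point in decile 2 rests on 12 models.

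Among called models the sizes were also smaller, a comparison that the call itself shapes. The median was 0.95 for late-suffix models called higher in leaf, against 1.15 for all models called so, and 1.16 for those called higher in root, against 1.53. For called t2 models the medians were 1.01 and 1.33. Below 2-fold in their estimate were 59 of the 111 and 58 of the 133 late-suffix models, against 1373 of 3334 and 1218 of 3729 over all called models. Of the called t2 models 103 of 207 and 131 of 325 lay below 2-fold. Within the late-suffix models, Spearman's rho between mean level and size was -0.16 over 538 models that share the same 8 libraries, which is a description only. The leaf and root means of the late-suffix models correlated with rho 0.84, against 0.80 for t1 and 0.80 for t2 models.

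The largest differences among models above 0 in every library show how far single late-suffix models depart from this pattern. They were picked for their size, and their p-values add nothing to that choice. Pis04357.t3 had 2148.1, 2631.3, 2727.3 and 6946.2 normalized counts in leaf libraries 1 to 4. In root libraries 1 to 4 it had 10.0, 216.1, 13.5 and 46.3. Leaf library 4 was far above the other leaf libraries and root library 2 far above the other root libraries, and every leaf value exceeded every root value. The log2 difference was 6.49 with a standard error of 0.81 (limma adjusted p = 6.98e-05).

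Pis05124.t9 had 938.4, 517.8, 784.4 and 362.8 normalized counts in leaf and 19.9, 6.37, 15.4 and 18.5 in root, in the order of the libraries. The log2 difference was 5.36 with a standard error of 0.38 (limma adjusted p = 1.25e-06). The leaf libraries were all high, and root library 2 was the lowest, at the worth of about 7 reads.

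In the other direction, Pis00039.t3 had 191.2, 164.5, 149.6 and 118.3 normalized counts in root and 2.88, 3.63, 1.34 and 2.48 in leaf. The leaf values equal 1.01 to 3.04 times the worth of a read, so that no fold is given, and the log2 difference of -5.48 with a standard error of 0.29 (limma adjusted p = 1.45e-07) depends on the pseudocount. It was -5.70 with a pseudocount of 0.5 and -4.40 with one of 5. Pis13996.t4 had 488.2, 654.1, 609.8 and 517.6 in root and 32.8, 21.9, 21.0 and 13.8 in leaf. Its log2 difference was -4.65 with a standard error of 0.24 (limma adjusted p = 1.37e-07), a ratio of the means of 25.4. Root values were close together for both models and lay far above all leaf values.

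Models that were not called include abundant ones. Pis17504.t3, the uncalled late-suffix model of the highest level, had 4604.4, 2294.9, 2782.2 and 1663.4 normalized counts in leaf and 2089.1, 1903.8, 1997.3 and 2306.0 in root. The organs overlapped, leaf was the more scattered, and the log2 difference was 0.35 with a standard error of 0.27 (limma adjusted p = 0.292). Pis11201.t3 had the difference nearest to 0 among uncalled models at or above the median level, with 526.4, 684.6, 618.7 and 725.1 in leaf and 770.1, 691.8, 515.6 and 597.9 in root. Its log2 difference was -0.01 with a standard error of 0.16 (limma adjusted p = 0.979). On column totals it came to -0.49 (adjusted p = 0.0487), close to the shift of all models on that scale.

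**Figure D5:**
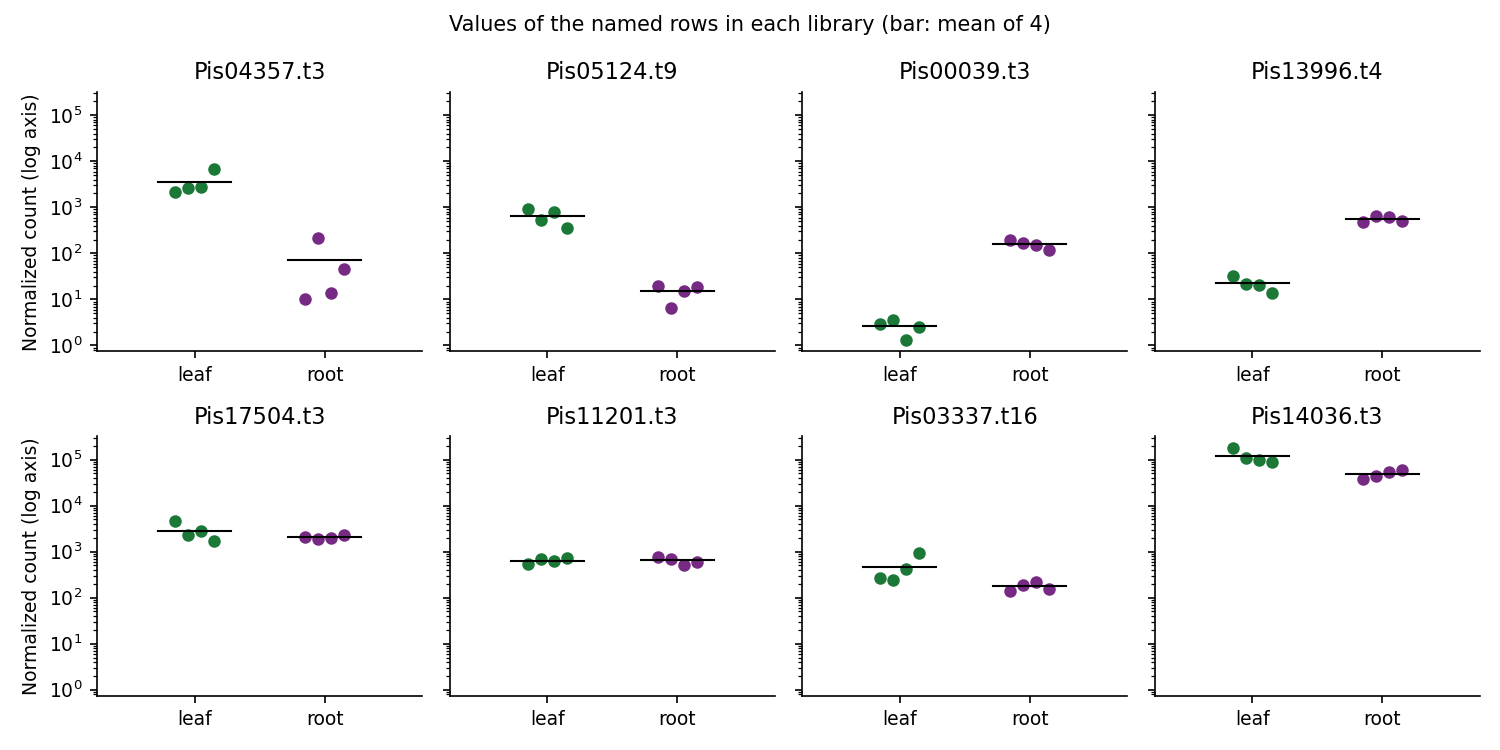
Normalized counts (vertical log axis) of the 8 named late-suffix models in the 4 leaf and 4 root libraries, with the mean of each organ as a bar. The upper row shows the models with the largest differences, where the organs are far apart. The lower row shows the uncalled Pis17504.t3 and Pis11201.t3, whose organs overlap, then Pis03337.t16 and the most abundant Pis14036.t3.

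The number of the suffix made little difference within the late-suffix models. The median mean level was 119.4 normalized counts for t3, 124 for t4, 109.6 for t5 and 132 for t6 or later. Spearman's rho between suffix number and mean level was 0.02 over the 564 models, and between suffix number and the size of the difference it was -0.02 over the 538 tested. The share called was 51.6% over all tested models. Called were 139 of 300 tested t3 models (46.3%), 48 of 114 t4 (42.1%), 33 of 62 t5 (53.2%) and 24 of 62 models with t6 or later (38.7%). Those with t6 or later were detected in all 8 libraries in 59 of 64 cases (92.2%), against 81.5% of the t3, 84.6% of the t4 and 82.8% of the t5 models. The median size of the difference was 0.51, 0.44, 0.56 and 0.37 in that order, with no steady trend.

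The 6 models with suffix t10 or later had means of 19.3 to 319.5 normalized counts. All 6 were tested, 3 were called in favour of leaf and 1 in favour of root, and 1 exceeded 2-fold by test. The highest suffix belonged to Pis03337.t16, with 269.1, 235.9, 414.9 and 937.4 normalized counts in leaf and 136.5, 184.3, 220.9 and 157.0 in root. Every leaf value exceeded every root value, with leaf library 4 far above the rest. The log2 difference was 1.20 with a standard error of 0.38 (limma adjusted p = 0.0212). The call was lost without root library 1 (adjusted p = 0.0651), without root library 4 (0.0528) and on column totals (0.138). Without leaf library 4 the log2 difference was 0.79 and the call held.

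Late-suffix models varied more among leaf than among root libraries. Within leaf the SD of a model's log2 value had a median of 0.33, and within root it had one of 0.20, which makes a ratio of 1.60. For 72.3% of the 538 models leaf was the more variable organ. For all tested models the ratio was 1.48. Level-weighted t1 models had medians of 0.35 in leaf and 0.24 in root, and t2 models 0.32 and 0.22. Without leaf library 1 the ratio for the late-suffix models was 1.30, and without root library 1 it was 1.81. Between leaf libraries 1 and 4, 18.6% of the late-suffix models differed by more than 2-fold, against 24.0% of all tested models. The other leaf pairs gave 7.43% to 11.9% and the root pairs 2.23% to 5.20%. In each of the 12 pairs within an organ the late-suffix share was below that of all tested models. The pairs reuse the same 8 libraries and were not matched for level. By decile of level, the median leaf SD was below that of t1 models in 4 of 9 deciles and above it in 5. The median root SD was below in 8 and above in 1.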

How the data were processed

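Poly(A) RNA of 4 leaf and 4 root samples was sequenced as paired reads, per the labels' protocols, which describe no step that marks the strand. The deposited table holds a normalized signal (normalized counts). Only 1 of 122848 values above 0 lay within 1e-06 of a whole number, which by itself does not show scaling. The worth of a read differed between libraries, from 0.928 to 1.45 normalized counts. Salmon and DESeq2 are listed, per the submitters' processing notes, with no role or version. The transcript set and genome build used by the authors are not stated there. Whole reads were not recovered, so a log-scale test was used, and 0 sample columns went unused. Leaf columns were assigned to the tissue, not to a label.

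Late-suffix models were taken by suffix from the row ids. Values were log2(normalized count + 1). Models with at least 10 in at least 4 libraries (3 with a library left out) were fitted with tissue as sole term and a trended prior (limma 3.58.1, R 4.3.3), and the Benjamini-Hochberg threshold was 0.05. The limma test and the level weighting were tested on simulated data. For values at matched level, t1 and t2 models were weighted to the late-suffix spread over deciles of mean normalized count. The worth of a read was the median of values above 0 below 1.5 times their 0.1% quantile. Python 3.11.15 with pandas 2.3.3 and numpy 2.4.6 was used. Named models were, among those past the 2-fold test without overlap and above 0 in every library, the 2 largest per direction, with the uncalled model of highest level, the uncalled model nearest 0 at or above the median level and the model of highest suffix. The members, lists and rules were chosen with earlier results of these data known. Replicates are flasks, and p-values measure the spread between them. The alternatives were other pseudocounts, scales, filters, priors, bins and limits, suffix t4 or later, a replicate block and libraries left out in turn.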

Additional observations from a re-analysis of the deposited data

Results flagged for a closer look

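A single value stood apart from its group by the Dixon test. For Pis04357.t3 it was leaf library 4, at 6946.2 normalized counts, where the remaining leaf values lay between 2148.1 and 2727.3. Its distance from the next value made up 0.879 of the whole range, more than the test allows among 4 samples at the 95% level. In all, 26 groups of values were examined, and chance alone flags about 1 in 20. With single libraries left out, the log2 difference of this model was 5.92 to 7.36.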

How the results depend on the processing

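Of the checks on the group values and counts of late-suffix models, 181 gave a like value, 35 moved and 1 reversed. A value counted as like within 1.5-fold for counts and 1 SD between libraries for other values. For values relative to t1 or t2 this was the SD of the late-suffix value alone. The cause of each move was not tested beyond what the alternative itself changes. Column totals left 49 models called in favour of leaf (9.07%, against 13.3% of all tested models) and 268 in favour of root (49.6%, against 48.7%). They raised the median size of the difference to 0.69. The size minus that of level-weighted t1 models was then -0.056, and minus t2 models -0.10. Restriction to suffix t4 or later, which takes fewer models, gave 105 calls (44.1%, against 51.6% of all tested models). Of these calls 43 were in favour of leaf (18.1%, against 24.4%) and 62 of root (26.1%, against 27.2%). Above 2-fold were 32 (13.4%, against 17.9%). The restriction gave 86.1% detected in all 8 libraries, a median size of 0.45 and a size of -0.15 relative to t1. The share of the library total was then 0.30 points lower in leaf (-0.30). The restriction also reversed the replicate spread relative to t2, from -0.009 to 0.00045. At an adjusted p under 0.01, 160 models (29.7%) were called, 72 higher in leaf and 88 in root, against 38.1% of all tested models. Above 4-fold by the treat test at 0.05 were 18 (3.35%), against 8.54%. Detection in all 8 libraries was 89.0% at 5 times the worth of a read, 74.1% at 20 times and 80.7% at 1 common limit. Its excess over t1 was 4.54 points at 20 times, 4.75 at the common limit and 6.34 with 5 bins. The excess over t2 was 4.74 at 5 times, 2.19 at 20 times and 2.58 at the common limit. Without the 10 most abundant late-suffix models the leaf share minus the root share was -0.49 points.

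With single libraries left out, detection in all libraries was 83.5% to 85.6%, its excess over t1 5.01 to 6.81 and over t2 2.92 to 5.07, and the size relative to t1 -0.15 to -0.11. The calls ran from 197 to 246, or 36.5% to 45.5% of the late-suffix models tested. Over all tested models 45.4% to 53.6% were called. Among named models, Pis17504.t3 reversed to -0.13 on column totals and Pis14036.t3 to -0.34 with quantile normalization. The difference of Pis11201.t3, near 0, ran from -0.11 to 0.086 with libraries left out. The calls of Pis03337.t16 and Pis14036.t3 were lost under several alternatives, those of the 4 models with the largest differences under none of those run on them.

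The column numbers as a replicate block gave 214 called late-suffix models (39.8%), 209 of them among the 244. Of all tested models 48.0% were called with the block. Leaf column numbers do not match the labels, and same-numbered columns deviated with correlations of -0.02 to 0.03, so the numbers were not taken as pairs. Of the 8 libraries 0 correlated best with their own number. The alternatives on detection at a common limit, on unfiltered sizes and spreads, on quantile-normalized sizes and on the level without the 10 most abundant models were added after seeing the data.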
